A study of Homo sapiens with 8 samples.

Results

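The superoxide dismutases SOD1 and SOD2, catalase (CAT), the glutathione peroxidases GPX1 and GPX4 and the peroxiredoxins PRDX1, PRDX2, PRDX3, PRDX5 and PRDX6 encode the enzymes that take apart superoxide and peroxides in human cells. These 10 protein-coding genes were chosen by name and looked up by symbol among the 58828 genes of the count tables, where all 10 were found in both cell lines and passed the filter on low counts. RNA-seq was carried out on the prostate cancer cell lines 22RV1 and DU145. Each line carried a doxycycline-inducible lentiviral vector, pLVX-TetOne-Puro, that was empty or held PAGE4 with an HA tag, a stress-response protein of the prostate. The 4 puromycin-selected cultures, empty vector cells included, were given doxycycline, and each was treated with PBS or with H2O2 for 12 h, at a dose written as 200 mM in the labels. There was 1 library for each of the 8 conditions, so a pair of libraries has no replicate check. Every test below takes its error from how far pairs of libraries differ. For H2O2 these pairs are of different cultures. For PAGE4 against vector and for the lines, the PBS and H2O2 pairs share their cultures. The PAGE4 tests within a line thus hold no spread between cultures of the same construct. Nothing says that the 8 libraries came from repeated cultures, so p-values measure only the spread between these libraries.

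Superoxide dismutases turn superoxide into oxygen and H2O2, SOD1 mainly in the cytosol with copper and zinc and SOD2 in the mitochondrial matrix with manganese. The H2O2 is then broken down in different places by different means: catalase works in peroxisomes without a reducing partner, glutathione peroxidases spend glutathione, and peroxiredoxins oxidise a cysteine that thioredoxin, or glutathione for PRDX6, reduces again. Glutathione and thioredoxin are both kept reduced with NADPH, so the supply genes described further below stand behind most of these enzymes.

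Total counts ranged from 25482984 to 43310401 per library. PAGE4 had 0 to 1 counts in the 4 empty vector libraries and 1001 to 1489 in the 4 PAGE4 libraries. Of 5 luminal markers of 22RV1 cells, KLK3, KLK2, HOXB13 and FOLH1 were expressed in 22RV1 cells and near 0 in DU145 cells, and TRPM8 had at most 7 counts in any library. Their summed level was 152 to 384 CPM (counts scaled to a library of 1000000 with TMM factors) in 22RV1 libraries and 0.161 to 0.478 in DU145 libraries. In 22RV1 cells it fell with H2O2, from 384 to 152 with the empty vector and from 361 to 165 with PAGE4, and 4 of the 4 markers tested were lower. Of 5 markers of DU145 cells, CAV1, S100A2 and VIM were higher in DU145 cells, CD44 did not pass the test, and LGALS1 was higher in 22RV1 cells. Mitochondrially encoded genes took 8.97% to 16.5% of the counts, and their share was lower in each H2O2 library than in its PBS partner. Whether these shifts play a part in the results below was not tested.

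H2O2 treatment lowered catalase, GPX4 and PRDX3 in both cell lines and raised GPX1 in both. In the fit over all 4 cultures, with the culture as the block, 5 of the 10 genes were past the limit of 0.05 for the adjusted p of edgeR's quasi-likelihood test, 1 of them higher (GPX1) and 4 lower (CAT, PRDX3, GPX4 and SOD2). Among all 22418 genes tested, 20.1% passed in that comparison, 8.89% higher and 11.2% lower. That background includes genes with far lower counts than the 10 genes, which had at least 990 in each library. The same holds for the shares of all genes in the tests below, so they are not like for like. The median log2 fold change was -0.24 over the 10 genes and -0.03 over all genes in that fit, -0.13 and -0.00 within 22RV1 cells, and -0.20 and -0.03 within DU145 cells. The changes were small, between 1.23-fold for GPX1 and 1.65-fold for CAT. Any culture left out brought the count down to 2 or 3, since SOD2 and GPX1 then lost their call each time, and GPX4 lost it without the 22RV1 vector culture (adjusted p = 0.0535). CAT and PRDX3 passed in each of these fits. In bulk libraries such as these, fewer cells that express a gene and less RNA of that gene per cell cannot be told apart.

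**Figure D1:**
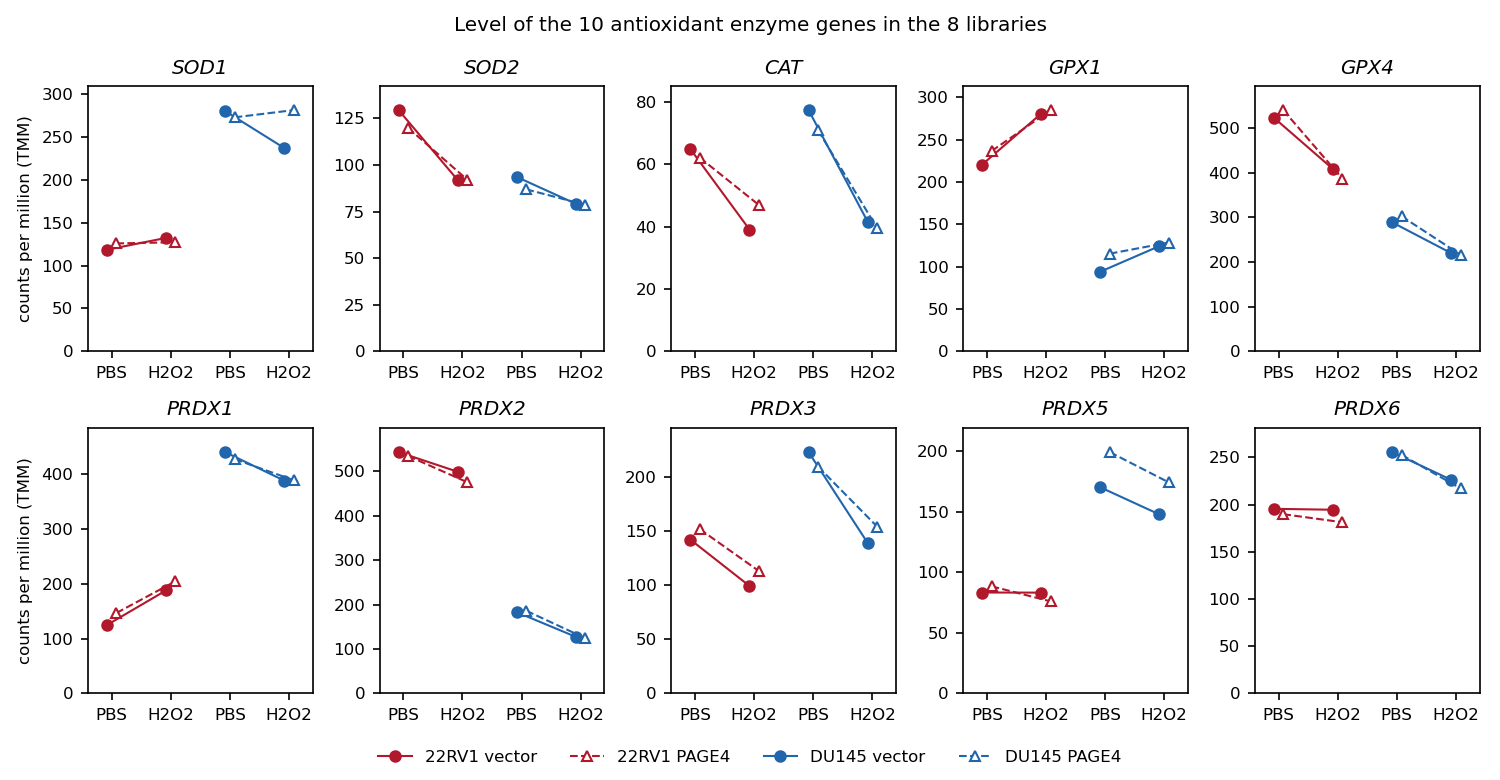
Level of each of the 10 genes in the 8 libraries, in CPM after TMM scaling (vertical axes start at 0); lines join the PBS and H2O2 libraries of a culture, filled circles are empty vector cells and open triangles PAGE4 cells. CAT, GPX4 and PRDX3 go down in all 4 cultures and GPX1 goes up, whereas PRDX1 goes up in 22RV1 cells (red) and slightly down in DU145 cells (blue).

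Within 22RV1 cells, 6 of the 10 genes passed, GPX1 and PRDX1 higher and SOD2, CAT, GPX4 and PRDX3 lower, beside 27.7% of all genes (12.8% higher and 14.9% lower). Within DU145 cells, 6 passed as well, GPX1 higher and CAT, GPX4, PRDX2, PRDX3 and PRDX6 lower, beside 36.7% of all genes (16.9% higher and 19.8% lower). PRDX6 was at the edge in DU145 cells (adjusted p = 0.0466) and did not pass in the 8 other fits run for that comparison (adjusted p from 0.0625 to 0.36). CAT, GPX1, GPX4 and PRDX3 thus passed in each line with the same direction.

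To show the sequence before the RefSeq starts of the 4 genes that moved the same way in both lines, 250 bases are printed here for each (RefSeq, GRCh38.p14), 5′ to 3′ on the strand of the gene. Capitals mark the matches of 3 motifs on either strand: the CCAAT box (CCAAT), the GC box (GGGCGG) and the E-box (CACGTG). The windows are chr11:34438684-34438933 for CAT on the plus strand, chr19:1103807-1104056 for GPX4 on the plus strand, chr10:119178813-119179062 for PRDX3 on the minus strand and chr3:49358354-49358603 for GPX1 on the minus strand. GPX4 has 3 annotated starts, and the window shown is the one with the most CCAAT boxes. By the GENCODE 44 spans given further on, the GPX1 window lies wholly inside the gene and the end of the GPX4 window does, since those gene models start farther upstream.
CAT: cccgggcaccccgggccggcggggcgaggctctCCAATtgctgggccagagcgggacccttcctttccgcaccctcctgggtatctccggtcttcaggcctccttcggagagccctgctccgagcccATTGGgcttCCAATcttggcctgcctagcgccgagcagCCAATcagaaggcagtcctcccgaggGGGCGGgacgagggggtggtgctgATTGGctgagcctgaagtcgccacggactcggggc
GPX4: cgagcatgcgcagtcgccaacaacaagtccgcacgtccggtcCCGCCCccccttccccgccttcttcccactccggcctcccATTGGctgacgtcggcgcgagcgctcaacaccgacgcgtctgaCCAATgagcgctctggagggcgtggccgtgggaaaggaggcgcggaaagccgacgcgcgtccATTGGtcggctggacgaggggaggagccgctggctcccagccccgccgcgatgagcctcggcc
PRDX3: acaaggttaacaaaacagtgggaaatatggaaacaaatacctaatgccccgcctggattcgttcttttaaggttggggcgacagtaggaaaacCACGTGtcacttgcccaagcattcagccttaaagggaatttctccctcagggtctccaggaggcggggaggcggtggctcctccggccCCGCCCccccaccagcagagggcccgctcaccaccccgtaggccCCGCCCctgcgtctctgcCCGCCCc
GPX1: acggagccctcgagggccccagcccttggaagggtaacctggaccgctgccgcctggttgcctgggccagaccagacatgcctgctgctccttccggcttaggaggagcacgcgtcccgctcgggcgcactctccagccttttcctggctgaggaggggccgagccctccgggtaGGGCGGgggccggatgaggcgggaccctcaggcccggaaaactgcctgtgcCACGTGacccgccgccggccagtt

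The CAT window held 5 CCAAT boxes, which start 217, 123, 114, 85 and 35 bases before the gene start. The GPX4 window above, picked for its count, held 3, at 168, 125 and 63 bases. The other GPX4 starts had 2 and 0, and the PRDX3 and GPX1 windows held none. Over the 35116 promoter windows of the table, 32% had a CCAAT box and 2.93% had 3 or more. PRDX3 and GPX1, which moved in opposite directions, both had an E-box, a motif found in 6.34% of all windows. The table covered 7 of the 10 genes with 13 starts, and all 7 had a GC box, before each of the 13 starts, against 42.6% of all windows. A CCAAT box was found before 5 of the 13 starts, in 3 of the 7 genes. SOD1, PRDX1 and PRDX6 had no entry. The core of the antioxidant response element (TGACNNNGC), to which the stress regulator NRF2 binds, matched in 0 of the 7 genes and in 10.9% of all windows. An AP-1 site (TGACTCA) also matched in 0 of 7, against 4.2% of all windows. These are matches of letters in a short window and say nothing of which factors bind.

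**Figure D2:**
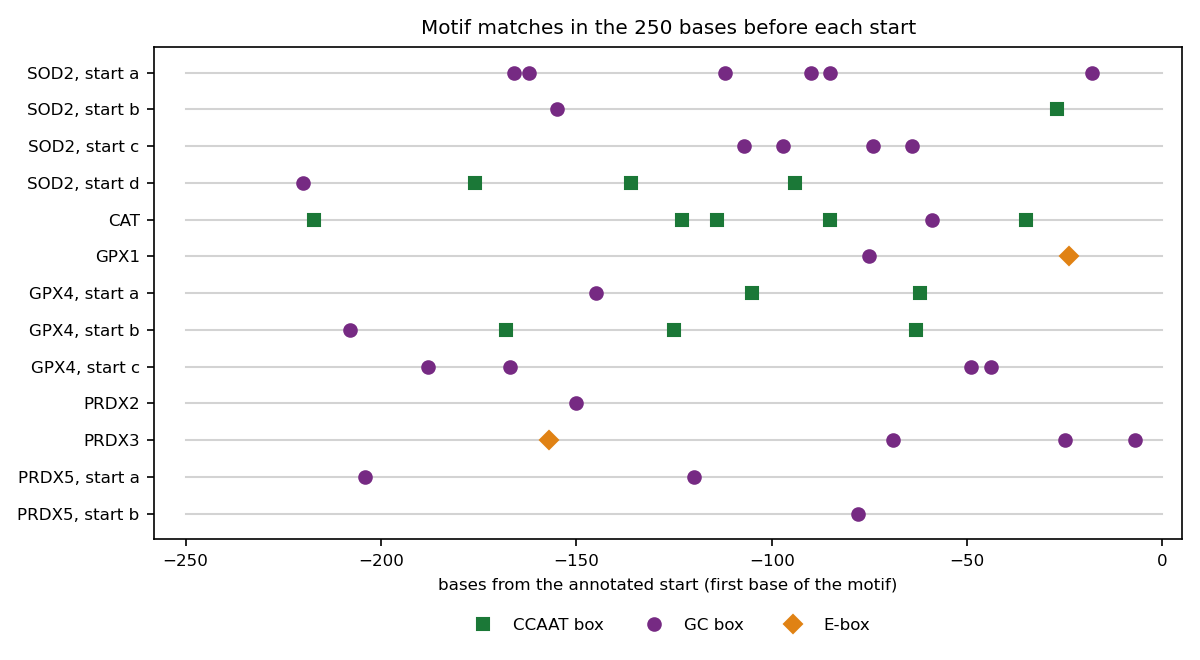
Matches of the CCAAT box (green squares), GC box (purple circles) and E-box (orange diamonds) in the 250 bases before each of the 13 annotated starts of the 7 genes with a promoter entry; the horizontal axis is the distance from the start in bases, and letters a to d number the starts of a gene in genome order. CAT carries 5 CCAAT boxes, and each start has at least 1 GC box.

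SOD1 lies at chr21:31659666-31668931 (GRCh38, GENCODE 44 gene model), and its mRNA served the study as a sign of oxidative stress in other assays. By quantitative PCR the study reported a rise of SOD1 with H2O2 in every line it tested. The legend of that figure gives a lower dose than the labels here and does not name DU145 cells. In the RNA-seq of 22RV1 cells SOD1 stood at 118 (vector PBS), 132 (vector H2O2), 126 (PAGE4 PBS) and 127 (PAGE4 H2O2) CPM. In DU145 cells the levels were 280, 237, 273 and 281 in the same order. With H2O2 SOD1 was a little higher in 22RV1 vector cells and lower in DU145 vector cells, both PAGE4 cultures hardly differed from PBS, and the lines did not overlap. Over the 4 cultures the log2 fold change with H2O2 was -0.01 ± 0.09 (SE; adjusted p = 0.98), with a 95% interval from -0.22 to 0.21. The single pairs ran from -0.24 in DU145 vector cells to 0.16 in 22RV1 vector cells. The H2O2 effect of SOD1 did not pass the test of a difference between the lines either (0.19 ± 0.12, adjusted p = 0.337).

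SOD2 lies at chr6:159669069-159762529 on the minus strand. Its levels in 22RV1 cells were 129, 91.8, 120 and 92.1 CPM (vector PBS, vector H2O2, PAGE4 PBS, PAGE4 H2O2). In DU145 cells they were 93.5, 79.1, 86.9 and 78.6. All 4 H2O2 libraries were below their PBS partners, and in each line the H2O2 and PBS libraries did not overlap. SOD2 fell by 0.44 ± 0.08 (log2) in 22RV1 cells (edgeR's quasi-likelihood test, adjusted p = 0.000844). In DU145 cells the log2 fold change was -0.19 ± 0.09 and did not pass (adjusted p = 0.0932), and neither did the difference between the lines (-0.24 ± 0.12, adjusted p = 0.197). In the fit of all cultures SOD2 was only just past the threshold (-0.32 ± 0.09, adjusted p = 0.0496), and it was not past it with relative log expression factors (0.061) or with total counts (0.114). Its exons overlap those of SOD2-OT1 on the same strand over 939 bases and those of WTAP and ACAT2 on the other strand over 570 bases, and the strand setting of the counting was not given, so shared reads cannot be told apart.

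CAT lies at chr11:34438934-34472060 and encodes the catalase of peroxisomes. It stood at 64.8, 39, 62 and 46.9 CPM in 22RV1 cells (vector PBS, vector H2O2, PAGE4 PBS, PAGE4 H2O2) and at 77.3, 41.5, 70.8 and 39.4 in DU145 cells. Every H2O2 library was below every PBS library of both lines. The gene showed the largest change with H2O2 of the 10, -0.72 ± 0.11 on the log2 scale over the 4 cultures (edgeR's quasi-likelihood test, adjusted p = 0.0054). The decrease was -0.57 ± 0.10 in 22RV1 cells (adjusted p = 0.000441), and in DU145 cells it was -0.87 ± 0.10 (adjusted p = 4.12e-06). The difference between the lines did not pass (0.30 ± 0.15, adjusted p = 0.184, 95% interval -0.01 to 0.61). By culture the log2 ratios were -0.73 with the empty vector and -0.40 with PAGE4 in 22RV1 cells, and -0.90 and -0.84 in DU145 cells. The smaller ratio of the 22RV1 PAGE4 pair was not matched in DU145 cells, and the test of PAGE4 against vector for the H2O2 effect gave 0.19 ± 0.26 (adjusted p = 1). The error of that test includes the difference of the H2O2 effect between the lines.

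GPX1, the abundant glutathione peroxidase of cytosol and mitochondria, lies at chr3:49357174-49358605 on the minus strand. It was at 220, 281, 237 and 285 CPM in 22RV1 cells and at 94.1, 124, 115 and 129 in DU145 cells (vector PBS, vector H2O2, PAGE4 PBS, PAGE4 H2O2). Each H2O2 library was above both PBS libraries of its line, though by little in DU145 cells, where the PAGE4 PBS library came close. In edgeR's quasi-likelihood test GPX1 rose in 22RV1 cells with a log2 fold change of 0.31 ± 0.08 (adjusted p = 0.0081), and in DU145 cells with 0.28 ± 0.08 (adjusted p = 0.0132). Each of these calls rested on the empty vector pair of the line: without it the values were 0.25 (adjusted p = 0.0879) in 22RV1 and 0.16 (adjusted p = 0.441) in DU145. Over the 4 cultures the value was 0.29 ± 0.09 (adjusted p = 0.0452). GENCODE 44 has another gene, ENSG00000290318, on the same strand over 572 exonic bases of GPX1, so a count may not separate them.

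GPX4 reduces lipid hydroperoxides in membranes and is the enzyme that holds off ferroptosis. It lies at chr19:1103982-1106791. Its levels were 523, 408, 540 and 386 CPM in 22RV1 cells and 289, 220, 302 and 216 in DU145 cells (vector PBS, vector H2O2, PAGE4 PBS, PAGE4 H2O2). H2O2 and PBS libraries did not overlap within a line, and the 4 ratios were close to each other, from -0.49 in DU145 PAGE4 cells to -0.36 in 22RV1 vector cells. GPX4 fell by 0.43 ± 0.08 on the log2 scale over the 4 cultures (edgeR's quasi-likelihood test, adjusted p = 0.0098), with -0.42 ± 0.07 in 22RV1 (0.000272) and -0.44 ± 0.07 in DU145 cells (0.000113). The difference between the lines was 0.02 ± 0.10, with a 95% interval from -0.20 to 0.23. Both glutathione peroxidases carry selenocysteine, and they moved in opposite directions in all 4 cultures.

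PRDX1, the main cytosolic peroxiredoxin and a known NRF2 target, lies at chr1:45510914-45542732 on the minus strand. In 22RV1 cells it was at 125 CPM in vector PBS, 188 in vector H2O2, 147 in PAGE4 PBS and 204 in PAGE4 H2O2. In DU145 cells the same conditions gave 440, 388, 427 and 389. Both 22RV1 cultures gained PRDX1 and both DU145 cultures had a little less, yet even the highest 22RV1 level was below the lowest DU145 level. In 22RV1 cells the log2 fold change was 0.54 ± 0.07 (edgeR's quasi-likelihood test, adjusted p = 3.14e-05). In DU145 cells the value was -0.16 ± 0.07 (adjusted p = 0.1). The H2O2 effect differed between the lines by 0.69 ± 0.10 (adjusted p = 0.000163). In the fit of all cultures PRDX1 did not pass (0.19 ± 0.15, adjusted p = 0.409). The exons of PRDX1 overlap those of MMACHC on the other strand over 501 bases, so reads may be shared.

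PRDX2, the cytosolic peroxiredoxin best known from red blood cells, lies at chr19:12796820-12801800 on the minus strand. It stood at 543, 499, 534 and 475 CPM in 22RV1 cells and at 183, 127, 186 and 124 in DU145 cells (vector PBS, vector H2O2, PAGE4 PBS, PAGE4 H2O2). The levels under H2O2 were lower in all 4 cultures, by clearly more in DU145 cells. In DU145 cells PRDX2 fell by 0.55 ± 0.07 on the log2 scale (edgeR's quasi-likelihood test, adjusted p = 1.02e-05). In 22RV1 cells the value was -0.15 ± 0.07 (adjusted p = 0.14). The lines differed in this effect by 0.41 ± 0.10 (adjusted p = 0.0096), a call that was lost without the DU145 PAGE4 culture (0.38, adjusted p = 0.0803). In the fit of all cultures PRDX2 was just outside the threshold (-0.35 ± 0.11, adjusted p = 0.0533), and it passed with the DESeq2 Wald test (0.0464). The exons of PRDX2 overlap those of ENSG00000267062 on the other strand over 247 bases, so reads may be shared here too.

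PRDX1 and PRDX2 were the 2 genes of the 10 whose H2O2 effect passed the test of a difference between the lines, beside 16.3% of all genes. In both, the effect was higher in 22RV1 cells than in DU145 cells. For the other 8 genes the estimated differences lay between -0.24 (SOD2) and 0.30 (CAT) on the log2 scale, and a difference of that size was not shown to be absent.

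PRDX3, the peroxiredoxin of the mitochondrial matrix, lies at chr10:119167720-119178812 on the minus strand. Its levels were 142, 99.4, 152 and 113 CPM in 22RV1 cells and 223, 139, 210 and 154 in DU145 cells (vector PBS, vector H2O2, PAGE4 PBS, PAGE4 H2O2). All 4 H2O2 libraries were below the PBS libraries of their line. Over the 4 cultures PRDX3 fell by 0.52 ± 0.09 on the log2 scale (edgeR's quasi-likelihood test, adjusted p = 0.0072). Its log2 fold change was -0.47 ± 0.08 (0.000372) within 22RV1 and -0.56 ± 0.08 (3.91e-05) within DU145 cells. SOD2, which acts in the same compartment, had a ratio under 0 in the same 4 pairs. So did CAT, GPX4, PRDX2, PRDX5 and PRDX6, so this sign was not particular to the compartment.

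PRDX5 (chr11:64318121-64321811), found in mitochondria, peroxisomes and cytosol, and PRDX6 (chr1:173477330-173488815), which works with glutathione, had small changes with H2O2. PRDX5 was at 83.4, 83.3, 88.5 and 76 CPM in 22RV1 cells and at 170, 148, 199 and 174 in DU145 cells (vector PBS, vector H2O2, PAGE4 PBS, PAGE4 H2O2). PRDX6 was at 196, 195, 190 and 181 in 22RV1 cells and at 256, 226, 253 and 217 in DU145 cells. In DU145 cells both were lower in each H2O2 library than in its PBS partner, and in 22RV1 cells the empty vector pair hardly differed for either gene. PRDX5 had a log2 fold change of -0.15 ± 0.09 over the 4 cultures (adjusted p = 0.246) and -0.20 ± 0.08 in DU145 cells (adjusted p = 0.0734). For PRDX6 the values were -0.12 ± 0.08 (adjusted p = 0.366) and -0.20 ± 0.07 (adjusted p = 0.0466).

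Added up, the 10 genes took 2145 and 2195 CPM in the PBS libraries of 22RV1 cells (vector, then PAGE4) and 2015 and 1988 with H2O2. In DU145 cells the sums were 2105 and 2123 with PBS and 1730 and 1802 with H2O2. The sum was lower with H2O2 in all 4 cultures, and the PBS sums of the lines lay close together although nearly every gene differed between the lines.

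**Figure D3:**
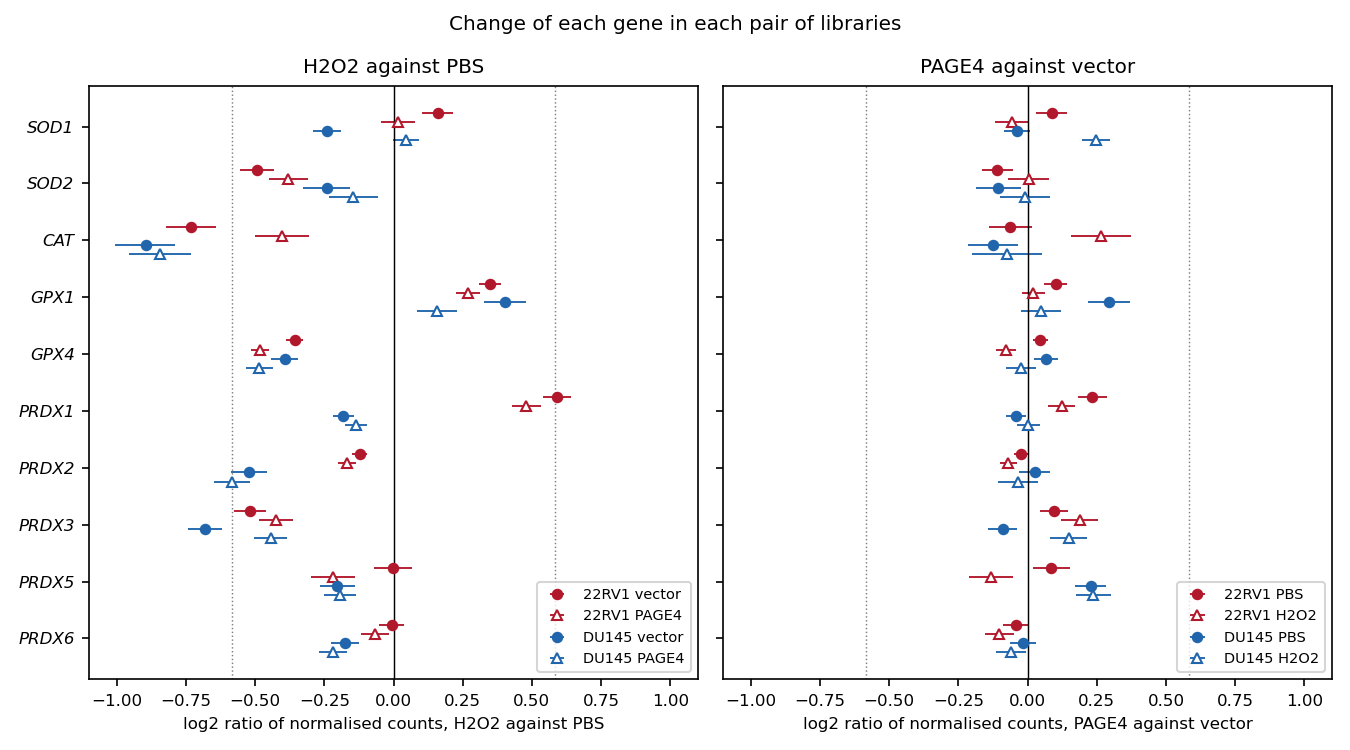
Log2 ratio of normalised counts for each gene in each pair of libraries, H2O2 against PBS on the left and PAGE4 against empty vector on the right; bars are 95% intervals for counting error only and dotted lines mark a 1.5-fold change. Under H2O2, CAT is past the line in 3 pairs, and against the vector no gene is.

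In single pairs of libraries, where a gene was called past the 1.5-fold limit of the study's methods and no test is possible, few of the genes stood out. In the 22RV1 vector pair 2 of 10 were past it with H2O2 (CAT lower, PRDX1 higher), beside 36.6% of the genes measured. In the 22RV1 PAGE4 pair 0 were, beside 29.3%. In the DU145 vector pair 2 were (CAT and PRDX3, both lower), beside 41.8%, and in the DU145 PAGE4 pair 1 was (CAT), beside 42.6%. These shares are of genes with a mean of at least 10 normalised counts in the line, and they run higher than the members' shares in all 4 pairs. They include genes with far lower counts than the members, which had at least 990 in each library, as do the shares for the PAGE4 pairs below.

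Whether PAGE4 changed these enzymes was the question closest to the study's design. None of the 10 genes passed in any of the comparisons of PAGE4 with the empty vector. In edgeR's quasi-likelihood test over the 4 pairs, 0 of 10 genes were called, beside 0.174% of all genes, and 0 had an unadjusted p under 0.05. Within 22RV1 cells the count was 0 of 10 beside 4.28% of all genes, and within DU145 cells 0 of 10 beside 0.17%. At an unadjusted p under 0.05 there was 1 gene in each line, PRDX1 in 22RV1 cells (0.18 ± 0.07, adjusted p = 0.23) and PRDX5 in DU145 cells (0.23 ± 0.08, adjusted p = 0.465). For the difference in the PAGE4 effect between the lines it was 0 of 10 beside 1.84%, with 1 gene, PRDX5, at an unadjusted p under 0.05. The DESeq2 Wald test also called 0 of the 10 in each of these. Over the 4 pairs the values ran from -0.06 ± 0.06 for SOD2 to 0.11 ± 0.07 for GPX1, and the 95% interval reaching farthest from 0 ended at 0.27, for PRDX5.

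Among the supporting lists described further on, PAGE4 against vector in 22RV1 cells was called, beside the 4.28% of all genes, for 1 of 6 other family members (GPX3, -0.91 on the log2 scale), 3 of 9 thioredoxin system genes (all lower), 6 of 17 glutathione and NADPH supply genes (5 lower, and NNT higher by 0.42), 2 of 6 selenoprotein synthesis genes and 1 of 3 copper delivery genes (all lower). Of the 8 regulators 0 were called in that comparison, and no peroxisome import gene was. SEPHS1 had the lowest value, -1.26, from 297 (vector) and 89.2 CPM (PAGE4) with PBS and 90 and 53.5 CPM with H2O2. In DU145 cells 1 of these genes was called, SESN3 (-1.15), beside the 0.17% of all genes.

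The response to H2O2 was also compared between PAGE4 and empty vector cells over both lines. Here 0 of the 10 genes and 0 of all 22418 genes (0%) passed by edgeR's quasi-likelihood test, with 59 genes at an unadjusted p under 0.05 and none of the 10 among them. The DESeq2 Wald test called 0 genes as well. Both fits gave the lines 1 shared H2O2 effect per construct, so their error includes the difference of that effect between the lines. That difference passed for 16.3% of all genes. These tests could thus hardly call a gene, and 0 calls do not show equal responses. The values of the 10 genes lay between -0.16 ± 0.20 (GPX1) and 0.19 ± 0.26 (CAT), and the 95% intervals were wide, the widest from -0.82 to 0.75 for PRDX1. In the single pairs, 0 of 10 genes were past 1.5-fold between PAGE4 and vector, beside 18.2% of genes in 22RV1 PBS, 21.9% in 22RV1 H2O2, 17.3% in DU145 PBS and 17.4% in DU145 H2O2.

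Most of the 10 genes differed in level between the cell lines. With the 4 construct-by-treatment pairs as blocks, edgeR's quasi-likelihood test called 9 of the 10 genes between the lines, of which 4 had more and 5 had less RNA in 22RV1 cells, beside 60.5% of all genes (31.9% higher and 28.5% lower). PRDX2 was highest in 22RV1 relative to DU145 cells, 3.36-fold (1.75 ± 0.12 on the log2 scale, adjusted p = 7.56e-06). GPX1 followed at 2.21-fold and GPX4 at 1.81-fold. On the other side, PRDX1 was lower in 22RV1 cells by 2.52-fold (-1.33 ± 0.16, adjusted p = 0.000163), SOD1 by 2.12-fold and PRDX5 by 2.08-fold. PRDX3 differed by -0.51 ± 0.09 (adjusted p = 0.0017). The differences of SOD2 (0.34 ± 0.10, adjusted p = 0.0173) and PRDX6 (-0.32 ± 0.09, adjusted p = 0.0167) were smaller, and both lost their call without the vector PBS or the PAGE4 PBS libraries. CAT was at a similar level in both lines (-0.07 ± 0.12, adjusted p = 0.62, 95% interval -0.35 to 0.20).

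**Figure D4:**
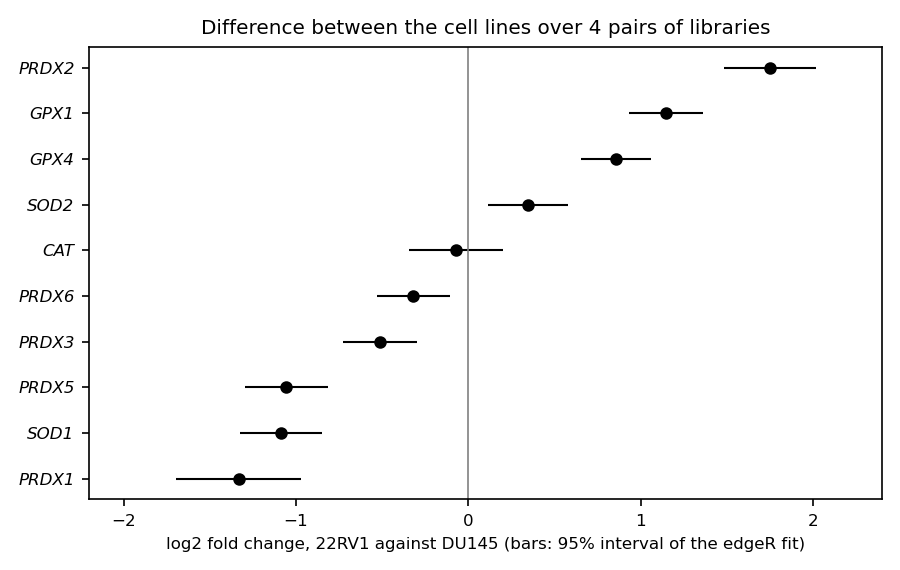
Log2 fold change of each gene in 22RV1 against DU145 cells over 4 pairs of libraries, with the 95% interval of the edgeR fit. PRDX2, GPX1, GPX4 and SOD2 lie to the right of 0, CAT spans it, and the other 5 genes lie to the left.

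Per kilobase of exon, which allows genes to be ranked within a line, the order of the 10 genes was different in the lines. In 22RV1 cells GPX4 and PRDX2 led with 252 ± 42.5 and 252 ± 15.5 CPM per kilobase (mean ± SD over the 4 libraries, treatments mixed), followed by GPX1 with 179 ± 22.4. PRDX1 (98.6 ± 21.8), PRDX5 (96.3 ± 5.96) and PRDX6 (82.4 ± 2.81) came next and SOD1 (63.7 ± 2.89) and PRDX3 (37.5 ± 7.27) below them. These SDs include the change with H2O2. GPX4 was above PRDX2 in both PBS libraries and below it in both H2O2 libraries. PRDX1 was below PRDX5 in both PBS libraries and above it in both H2O2 libraries. It was above PRDX6 in both H2O2 libraries, and the PBS libraries were split. In DU145 cells PRDX1 led with 244 ± 15.8, then came PRDX5 with 201 ± 24.5, GPX4 with 140 ± 24.6 and SOD1 with 136 ± 10.5. PRDX6 (103 ± 8.29), GPX1 (80.7 ± 10.7), PRDX2 (76.2 ± 16.7) and PRDX3 (53.8 ± 12.2) were lower. GPX4 was above SOD1 in both PBS libraries and below it in both H2O2 libraries, by little in the vector H2O2 library. PRDX2 was above GPX1 in both PBS libraries and below it in both H2O2 libraries. CAT was near the bottom in both lines, with 14.9 ± 3.43 in 22RV1 and 16 ± 5.47 in DU145 cells. SOD2 was lowest, with 5.97 ± 1.06 and 4.66 ± 0.39, but its annotated exons add up to 18144 bases over all isoforms, so its per-length level is understated where short isoforms prevail. Lengths came from GENCODE 44, since the annotation used for counting was not given.

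The other members of the same families were measured too. SOD3, the secreted dismutase, had 35 to 61 counts in 22RV1 libraries and 0 to 3 in DU145 libraries. GPX7 had 73 to 119 counts in 22RV1 libraries and 0 in all 4 DU145 libraries, at least 21.4-fold lower against a floor of 3 counts per library. GPX3, the plasma glutathione peroxidase, was the reverse, with 4.58 ± 2.37 CPM in 22RV1 and 53.6 ± 11.2 in DU145 cells, and GPX8 also (12.4 ± 1.58 and 49.4 ± 3.41). PRDX4, the peroxiredoxin of the endoplasmic reticulum, was at 73.2 ± 9.50 and 70.8 ± 5.50 and passed in neither the line nor the H2O2 comparison (adjusted p = 0.718 and 0.216). GPX5 and GPX6 had 0 to 2 counts in all libraries and were not tested. Over the 4 cultures 0 of the 6 genes tested passed with H2O2 in edgeR's quasi-likelihood test, with 0 at an unadjusted p under 0.05. Within 22RV1 cells GPX2 (1.15 ± 0.33, adjusted p = 0.0135) and GPX3 (0.72 ± 0.18, adjusted p = 0.0055) rose, and within DU145 cells GPX3 fell by 0.45 ± 0.14 (adjusted p = 0.0152). In 22RV1 cells the count of these genes called was 0 without 22RV1 vector and 1 by the DESeq2 Wald test, against 2, and in DU145 cells it was 0 by the DESeq2 Wald test and without DU145 PAGE4, against 1.

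The thioredoxin system recycles peroxiredoxins. The list made for it also holds the sestrins SESN1, SESN2 and SESN3. Of the 9 genes listed, 5 passed with H2O2 over the 4 cultures, 2 higher and 3 lower, beside 20.1% of all genes. The median log2 fold change of the list was -0.13. The count was 2 without 22RV1 vector, and 3 without 22RV1 PAGE4, without DU145 vector or with total counts. SESN2, a sestrin induced by stress, rose from 29.1 to 255 CPM in 22RV1 vector cells, from 25 to 128 in 22RV1 PAGE4 cells, from 47.8 to 258 in DU145 vector cells and from 59 to 263 in DU145 PAGE4 cells. The rise was 5.72-fold over the 4 cultures (2.52 ± 0.16 on the log2 scale, edgeR's quasi-likelihood test, adjusted p = 0.000368). TXNRD1, the cytosolic thioredoxin reductase and an NRF2 target, rose in 22RV1 cells (1.65 ± 0.08) and less in DU145 cells (0.22 ± 0.08), where its PBS levels of 2408 to 2560 CPM were far above the 250 to 259 of 22RV1 cells. TXNRD2, the mitochondrial reductase, fell by 0.72 ± 0.14 over the 4 cultures (adjusted p = 0.0124). SESN3 fell by 0.68 ± 0.19 (adjusted p = 0.0379). SRXN1, sulfiredoxin, which repairs overoxidised peroxiredoxins, went from 49 to 241 counts in 22RV1 vector cells and from 11 to 189 in 22RV1 PAGE4 cells. Its counts in DU145 cells were 153 and 357 with the vector and 582 and 393 with PAGE4, so the DU145 pairs went opposite ways. SESN1, another sestrin, rose in 22RV1 cells (1.73 ± 0.17, adjusted p = 6.06e-07) and gave 0.17 ± 0.20 in DU145 cells (adjusted p = 0.551). The exons of SRXN1 share 2292 same-strand bases with ENSG00000270299, so its counts are uncertain.

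In the list of 17 genes for glutathione and NADPH supply, 6 passed over the 4 cultures, 2 higher and 4 lower, with a median log2 fold change of -0.14, beside 20.1% of all genes called. The count was 3 without 22RV1 PAGE4, 11 by the DESeq2 Wald test and 10 with cell lines as blocks. GCLM, the modifier subunit of the enzyme that starts glutathione synthesis, rose by 0.86 ± 0.21 (adjusted p = 0.0262) and GLRX2, a mitochondrial glutaredoxin, by 0.75 ± 0.19 (adjusted p = 0.0297), both by edgeR's quasi-likelihood test. Both effects differed between the lines, by 1.09 for GCLM and -0.78 for GLRX2 (log2, 22RV1 minus DU145). IDH2 and NNT, which both make NADPH in mitochondria, fell by 0.77 ± 0.09 (adjusted p = 0.0022) and by 0.67 ± 0.10 (adjusted p = 0.0044). IDH2 was at 63 to 74.3 CPM in the PBS libraries and at 39.8 to 42.8 in the H2O2 libraries, without overlap. ME1, cytosolic malic enzyme, and SLC7A11, the cystine importer, rose in 22RV1 cells (1.13 ± 0.14 and 1.47 ± 0.09) and did not pass in DU145 cells (-0.17 ± 0.11 and 0.17 ± 0.09).

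**Figure D5:**
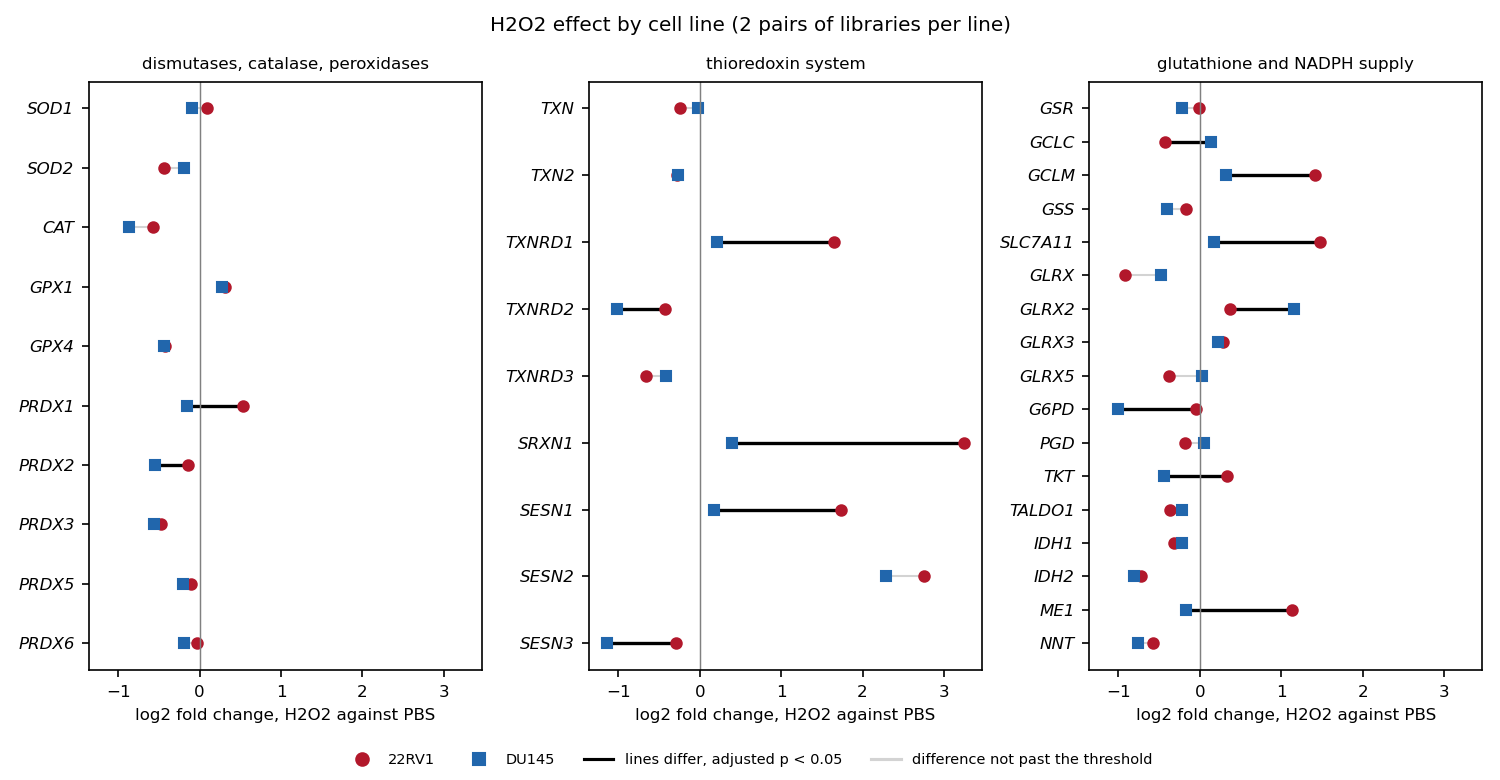
Log2 fold change with H2O2 in 22RV1 cells (red circles) and DU145 cells (blue squares) for the 10 enzymes, the thioredoxin system and the glutathione and NADPH supply genes, 2 pairs of libraries per line; black connectors mark genes whose effect differs between lines at an adjusted p under 0.05. Of the 10 enzymes PRDX1 and PRDX2 are so marked, with smaller gaps than TXNRD1, SRXN1 or SLC7A11.

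Glutathione peroxidases need selenocysteine, and of 6 genes for selenoprotein synthesis 4 passed over the 4 cultures, 2 in each direction, beside 20.1% of all genes. The count was 2 without 22RV1 vector, without DU145 vector or without DU145 PAGE4. SEPHS2, which makes selenophosphate, rose by 0.82 ± 0.11 (adjusted p = 0.0031) and PSTK, the kinase for the selenocysteine tRNA, by 0.81 ± 0.19 (adjusted p = 0.0204), both by edgeR's quasi-likelihood test. SEPHS1 fell by 0.81 ± 0.21 (adjusted p = 0.0312) and EEFSEC, the elongation factor for selenocysteine, by 0.65 ± 0.14 (adjusted p = 0.0156). SEPHS1 stood at 297 CPM in the 22RV1 vector PBS library and between 53.5 and 102 in the other 7. For copper delivery, which SOD1 depends on, 1 of 3 genes passed, the copper importer SLC31A1 (0.48 ± 0.09, adjusted p = 0.0105), and 0 passed without DU145 vector. CCS, the copper chaperone of SOD1, gave 0.17 ± 0.13 in 22RV1 cells and fell by 0.41 ± 0.13 in DU145 cells (adjusted p = 0.0193). Of 5 peroxisome import genes, which catalase needs to reach its organelle, 0 passed over the 4 cultures in edgeR's quasi-likelihood test, and 2 had an unadjusted p under 0.05. No other setting, the DESeq2 Wald test included, called more than 1. PEX5, the import receptor, rose in DU145 cells (0.53 ± 0.10, adjusted p = 0.000402) and gave 0.09 ± 0.09 in 22RV1 cells.

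Of 8 regulators of these genes, 4 passed over the 4 cultures, all higher, beside 20.1% of all genes. None of these calls held in every fit, since the count was 0 without DU145 vector, 1 without 22RV1 vector and 2 without DU145 PAGE4. They were FOXO3 (0.69 ± 0.18, adjusted p = 0.0329), which is known to act on SOD2 and CAT, BACH1 (0.67 ± 0.17, adjusted p = 0.0279), a repressor at antioxidant response elements, and the NF-kB subunits NFKB1 (0.48 ± 0.09) and RELA (0.54 ± 0.10), the last 2 named after their values were seen. KEAP1, which holds NRF2 down, rose in 22RV1 cells from 84.5 to 130 CPM with the vector and from 96.5 to 117 with PAGE4. It fell in DU145 cells from 96.9 to 54.4 and from 97.2 to 58.6. The H2O2 effect on KEAP1 differed between the lines by 1.23 ± 0.14 (edgeR's quasi-likelihood test, adjusted p = 8.13e-06). NFE2L2, the gene of NRF2 and also named after its values were seen, gave 0.24 ± 0.09 in 22RV1 cells (adjusted p = 0.0445) and 0.14 ± 0.08 in DU145 cells (adjusted p = 0.203). Its exons overlap those of other genes over 2037 bases on the same strand and 3710 on the other, so its counts are uncertain.

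Across the 8 libraries, with levels centred within each line, SOD1 was most like FAM162A (Pearson's r = 0.92), CSNK2B (0.91) and TNFAIP8 (0.90) among 12460 genes. SOD2 was most like RMI1 (0.997), CANX (0.996) and BTN3A2 (0.993). With the other enzymes, SOD2 had an r of 0.87 with GPX4, 0.84 with PRDX3, 0.82 with CAT and -0.91 with GPX1, whereas the values of SOD1 ran from -0.20 with SOD2 to 0.53 with PRDX5. These correlations describe 8 libraries that share 4 cultures and 2 treatments. The genes named first for SOD1 and SOD2 were picked as the highest of 12460. How high such picks reach by chance was not tested. Copies of SOD1, SOD2, GPX1, PRDX1, PRDX2, PRDX3 and PRDX4, counted under 16 pseudogene symbols, had at most 34 counts in any library. No such symbol was found for GPX4, PRDX5 or PRDX6, and none was searched for CAT.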

How the data were processed

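RNA-seq was analysed in 8 libraries of 22RV1 and DU145 cells, 1 for each cell line, construct and treatment. Alignment by the authors used HISAT2 2.1.0 on GRCh38, and featureCounts 1.6.0 gave the raw counts by gene symbol that they deposited as 1 table per line. The annotation and the strand setting are not given in the sources used here. Both tables were joined by symbol, and edgeR 4.0.16 in R 4.3.3 was used for filterByExpr, TMM factors and the quasi-likelihood test over 22418 genes, with Benjamini-Hochberg adjustment and a limit of 0.05. The block was the culture for H2O2, the line-by-treatment pair for PAGE4 and the construct-by-treatment pair for the lines, which left 3 residual degrees of freedom, or 2 for effects per line or construct. The SE is the log2 fold change divided by the square root of F. Single pairs were compared as ratios with a pseudocount of 0.5, a limit of 1.5-fold, a mean of at least 10 normalised counts and exact 95% (Clopper-Pearson) intervals for counting error only. The code was tested on simulated counts. DESeq2 1.42.0, other scalings, no filter and leaving out pairs served as alternatives. All 10 genes, their family and PAGE4 are named, with, from each list, up to 2 genes per direction of the H2O2 effect and 2 that differ most between lines; SOD1 and SOD2 also have their 3 most correlated genes. A marker and a list gene that this rule covers are not reported here. The members and lists were chosen with earlier results of these data known. Gene positions and exon lengths are from GENCODE 44, and promoters from RefSeq (GRCh38.p14).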

Additional observations from a re-analysis of the deposited data

Results flagged for a closer look

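For 19 of the genes named in the text, the H2O2 effect differed between the cell lines, by the contrast of both effects in edgeR's quasi-likelihood test (adjusted p under 0.05, 2 pairs of libraries per line). The values below are differences of log2 fold changes, 22RV1 minus DU145. Among the 10 enzymes they were 0.69 for PRDX1 and 0.41 for PRDX2, and among the other family members 1.86 for GPX2 and 1.17 for GPX3. In the thioredoxin system list, sestrins included, they were 2.85 for SRXN1, 1.56 for SESN1, 1.44 for TXNRD1, 0.84 for SESN3 and 0.58 for TXNRD2. Among the supply genes they were 1.31 for ME1, 1.30 for SLC7A11, 1.09 for GCLM and -0.78 for GLRX2. The selenoprotein genes SEPHS1 and SEPHS2 gave -0.84 and -0.36, the copper chaperone CCS 0.59, and the peroxisome import receptor PEX5 -0.44. Among the regulators the values were 1.23 for KEAP1 and -0.87 for FOXO3. The list genes here were named for such differences or for their H2O2 effect, so their number says nothing about the lists. The SEPHS1 level of the 22RV1 vector PBS library, 297 CPM, stood far above those of the other 7 libraries.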

How the results depend on the processing

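Among the 10 genes, no log2 fold change that passed in the main or the alternative fit changed its sign. Of 820 refits of these values, 788 kept their side of the threshold, 29 lost the call and 3 gained it. All 3 were PRDX2 with H2O2 over the 4 cultures (no filter, the DESeq2 Wald test, and cell lines as blocks). The signs of genes that passed in neither fit were not compared. PRDX6 between the lines lost its call with total counts (adjusted p = 0.297), which moved the median of all genes by 0.20 (log2) there and by 0.13 for H2O2 in 22RV1. With a culture left out, the count of the 10 genes called was 2 (without 22RV1 vector) to 3 for H2O2 over the 4 cultures, against 5, and 1 (without DU145 PAGE4) to 2 for the difference of the H2O2 effect between lines. In the single 22RV1 PAGE4 pair it was 1 with total counts, a scaling chosen after seeing the data for these counts, against 0.

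Counts over all genes moved more. Leaving out a culture gave 1974 (without DU145 vector) to 3880 genes for H2O2 over the 4 cultures, against 4506. It gave 3702 (without 22RV1 vector) to 6113 in 22RV1, against 6210, 5143 (without DU145 PAGE4) to 9326 in DU145, against 8225, and 2121 to 4252 for the difference between lines, against 3655. For the H2O2 effect in PAGE4 minus vector it gave 0 to 34, against 0. Leaving out a pair gave 10 to 76 genes for PAGE4 over the 4 pairs, against 39, and 776 to 1510 for PAGE4 in 22RV1, against 960. For PAGE4 in DU145 it gave 15 to 390, against 38, and for the PAGE4 difference between lines 244 to 1240, against 413. With no filter these PAGE4 counts were 483 over the 4 pairs, 217 in DU145 and 806 for the difference, and 1 for the H2O2 effect in PAGE4 minus vector. PAGE4 over the 4 pairs gave 90 by the DESeq2 Wald test and 1 once cell lines replaced the pairs as blocks, and PAGE4 in DU145 gave 62 with DESeq2 size factors and 63 with total counts. A mean of at least 50 normalised counts left 4133, 2895, 4865 and 5023 genes past 1.5-fold with H2O2 (22RV1 vector, 22RV1 PAGE4, DU145 vector, DU145 PAGE4), and 1081, 1625, 787 and 775 between PAGE4 and vector (22RV1 PBS, 22RV1 H2O2, DU145 PBS, DU145 H2O2). Fewer genes were compared there, and the share past the limit among them was not computed. The cause of these shifts was not tested. The labels number no replicates, so no pairing by number was possible.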
